A study of Homo sapiens with 40 samples.

Results

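The tissue kallikreins are a family of secreted serine proteases encoded side by side on chromosome 19. Of that family, 8 genes were followed here by symbol, *KLK5*, *KLK6*, *KLK7*, *KLK8*, *KLK10*, *KLK11*, *KLK13* and *KLK14*, among 60708 annotated genes in the count tables. The members were chosen by their measured mRNA levels in these libraries, so the differences in level between the cell types that drew attention to them, above all unstimulated MII- against MI-spheres, are given as a description with no p-value. RNA was counted in 24 libraries that fall into 8 groups of 3. MI-spheres are floating 3D cultures of MCF-10A, a non-tumorigenic human mammary epithelial line, and MII-spheres are the same kind of culture of MCF-10AneoT, its derivative carrying oncogenic HRAS. Both were sampled without stimulation (Ctrl) and after 16 h of TGFβ, at 2.5 ng/ml per the labels. MDA-MB-231, an established triple-negative breast cancer line grown as a monolayer in serum, was labelled WT or SLUG KO, the latter edited by Cas9 with 1 guide to the first exon of *SNAI2* and expanded from single-cell colonies. In another sequencing batch, MDA-MB-231 cells received siRNAs against *SMAD2*, *SMAD3* and *SMAD4* together (siSMAD2/3/4) or control siRNA (Csi). Each genotype is thus represented by 1 cell line, and nothing on the labels says that the 3 libraries of a group came from separate cultures, so p-values measure only the spread between these libraries, which may be technical.

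Kallikreins are made as inactive precursors, and trypsin-like members can activate one another and other family members in a cascade best known from the outer layers of the skin. There, KLK5 and KLK7 cleave desmosomal adhesion proteins and are held in check by the inhibitor LEKTI, the product of *SPINK5*. In the normal mammary gland several kallikreins are made by epithelial cells, and *KLK10* was first described as a gene expressed in normal breast epithelial cells and lost from many breast cancer lines.

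Total counts ranged from 14124688 to 38406952 per library. Log2 levels of replicate libraries had a lowest Pearson's r, taken across genes, of 0.984 in 7 groups and of 0.952 in the WT group, where WT replicate 2 stood apart. *HRAS* mRNA, including any made from the introduced gene, lay at 191 to 223 CPM (counts per 1000000 counts of the library, with TMM scaling factors from all 24 libraries) in the MII libraries and at 39.6 to 63.3 CPM in the MI libraries. In siSMAD2/3/4 cells *SMAD2* was at 23.6 to 24.2 CPM against 88.6 to 91.6 CPM in Csi, *SMAD4* at 15.8 to 18 against 54.5 to 56.8 CPM and *SMAD3*, the least reduced, at 159 to 173 against 261 to 273 CPM. The libraries labelled SLUG KO held more *SNAI2* mRNA than WT (57.8 to 64.3 against 20.9 to 33.7 CPM), which small insertions or deletions need not lower. All 7 epithelial markers on the list (*EPCAM*, *CDH1*, *KRT5*, *KRT14*, *KRT17*, *TP63*, *LAMB3*) reached 1 CPM in every unstimulated MI library and 6 of 7 did in MII, with summed levels of 2755 to 2815 and 1550 to 1599 CPM. In WT cells 2 of 7 did, with *KRT5* at 0. The 4 blood cell markers summed to 35.2 to 36.8 CPM in unstimulated MII-spheres against 0.156 to 0.482 CPM in MI-spheres, nearly all of it *LYZ* (35.7 ± 0.803 CPM), while *CD3E* had no count in unstimulated MII. The 3 endothelial markers summed to 114 to 117 CPM against 31.3 to 34.5 CPM, with *PECAM1* higher and *CDH5* and *VWF* lower in MII. The 2 fat cell markers summed to 10.1 to 13.4 CPM in unstimulated MII against 2.41 to 3.79 CPM in MI, with *ADIPOQ* at 0 in both, and the 3 fibroblast markers to 0.0556 to 0.301 against 12.3 to 13.4 CPM. The 4 mesenchymal markers summed to 58.7 to 63.5 and 57.4 to 62.9 CPM. Whether these markers have a part in the difference in kallikreins was not tested.

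In the GRCh38 annotation of the count tables the 8 genes lie within chr19:50943303-51084245, a stretch of 141 kb, and all 8 are on the minus strand. From low to high coordinates the order is *KLK5*, *KLK6*, *KLK7*, *KLK8*, *KLK10*, *KLK11*, *KLK13* and *KLK14*, with *KLK9* between *KLK8* and *KLK10* and *KLK12* between *KLK11* and *KLK13*. *KLK5* occupies chr19:50943303-50953093, *KLK6* chr19:50958631-50969673 and *KLK7* chr19:50976468-50984099. *KLK8* follows at chr19:50996007-51002711 and *KLK10* at chr19:51012739-51020175. Fragments on bases shared by several genes were not counted for any of them and strand was ignored. Exon bases shared with other genes made up 12.2% of *KLK5* and 20.5% of *KLK6*, both with antisense lncRNAs, 6.32% of *KLK10*, and 40.1% of *KLK8*, which overlaps *KLK9* and a readthrough gene. Levels per kb below therefore use only the unshared exon bases. *KLK7*, *KLK11*, *KLK13* and *KLK14* share none.

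RefSeq gives promoters (GRCh38.p14) for 7 of the 8 genes. Where it lists several starts, as for *KLK7* (3) and *KLK10* (2), the start nearest the annotated 5′ end was used. That of *KLK10* lies 314 bases inside the annotated gene, so its window does too. The 250 bases before the start are shown for the pair that differs most between the lines (*KLK5*, *KLK6*), for the member that MI-spheres also expressed (*KLK7*) and for the member tested in MDA-MB-231 cells (*KLK10*). They run 5′ to 3′ on the minus strand, and capitals mark matches on either strand to CAGAC, a core bound by SMAD proteins, or CAGGTG, an E-box of the kind that SLUG binds.
KLK5, chr19:50953039-50953288: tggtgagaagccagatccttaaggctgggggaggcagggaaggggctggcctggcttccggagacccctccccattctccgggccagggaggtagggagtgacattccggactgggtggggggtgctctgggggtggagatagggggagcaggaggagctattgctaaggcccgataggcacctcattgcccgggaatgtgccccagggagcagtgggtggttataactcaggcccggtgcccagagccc
KLK6, chr19:50969592-50969841: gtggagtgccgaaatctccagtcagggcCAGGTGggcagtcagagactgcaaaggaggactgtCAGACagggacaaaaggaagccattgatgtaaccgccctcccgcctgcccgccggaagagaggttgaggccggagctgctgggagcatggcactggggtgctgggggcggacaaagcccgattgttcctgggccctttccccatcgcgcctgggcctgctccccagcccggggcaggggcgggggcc
KLK7, chr19:50984065-50984314: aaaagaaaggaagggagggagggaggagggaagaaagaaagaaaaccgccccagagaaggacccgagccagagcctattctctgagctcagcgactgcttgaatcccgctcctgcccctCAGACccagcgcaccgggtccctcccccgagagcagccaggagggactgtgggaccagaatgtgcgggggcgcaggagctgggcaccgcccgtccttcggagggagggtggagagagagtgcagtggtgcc
KLK10, chr19:51019862-51020111: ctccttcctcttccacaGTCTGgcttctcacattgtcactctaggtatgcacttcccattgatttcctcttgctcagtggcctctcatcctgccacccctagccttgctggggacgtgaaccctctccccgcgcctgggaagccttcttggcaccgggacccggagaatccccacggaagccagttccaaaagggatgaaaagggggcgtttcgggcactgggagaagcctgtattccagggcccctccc
CAGAC stood in 6 of the 7 windows and in 38% of 34943 RefSeq promoter windows of that length, and *KLK5* was the member without it. CAGGTG stood only in the *KLK6* window, 217 to 222 bases before the start, and in 17.5% of all windows. Neither TGANTCA, the AP-1 element (6.59% of all windows), nor TATAAA (10.8%) was found in any of the 7, on either strand. GC content was 64.8% for *KLK5*, 66.8% for *KLK6*, 64% for *KLK7* and 59.2% for *KLK10*, against a median of 58% over all windows. These matches describe letters in 1 window per gene and say nothing on binding.

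Unstimulated MII-spheres contained a block of kallikrein mRNAs that MI-spheres held at a low level and MDA-MB-231 cells nearly lacked. Summed over the 8 genes, the level was 686 ± 16.4 CPM (SD, n = 3) in unstimulated MII-spheres and 9.14 ± 0.945 CPM in unstimulated MI-spheres. It was 0.159 ± 0.0683 CPM in WT and 0.441 ± 0.126 CPM in Csi cells. In these bulk samples, fewer cells of a type and less RNA per cell cannot be told apart. Of 5 members tested in the fit of MII Ctrl against MI Ctrl, all 5 lay above a log2 fold-change of 1, as did 12.5% of the 17862 genes tested. Since the members were chosen by such levels, this count is a description. Genes could also pass the filter on low counts through MII alone. That held for *KLK5*, *KLK6*, *KLK8* and *KLK10*, whose MI counts would not have passed it, and not for *KLK7*. *KLK11*, *KLK13* and *KLK14* had too few counts to be tested.

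**Figure D1:**
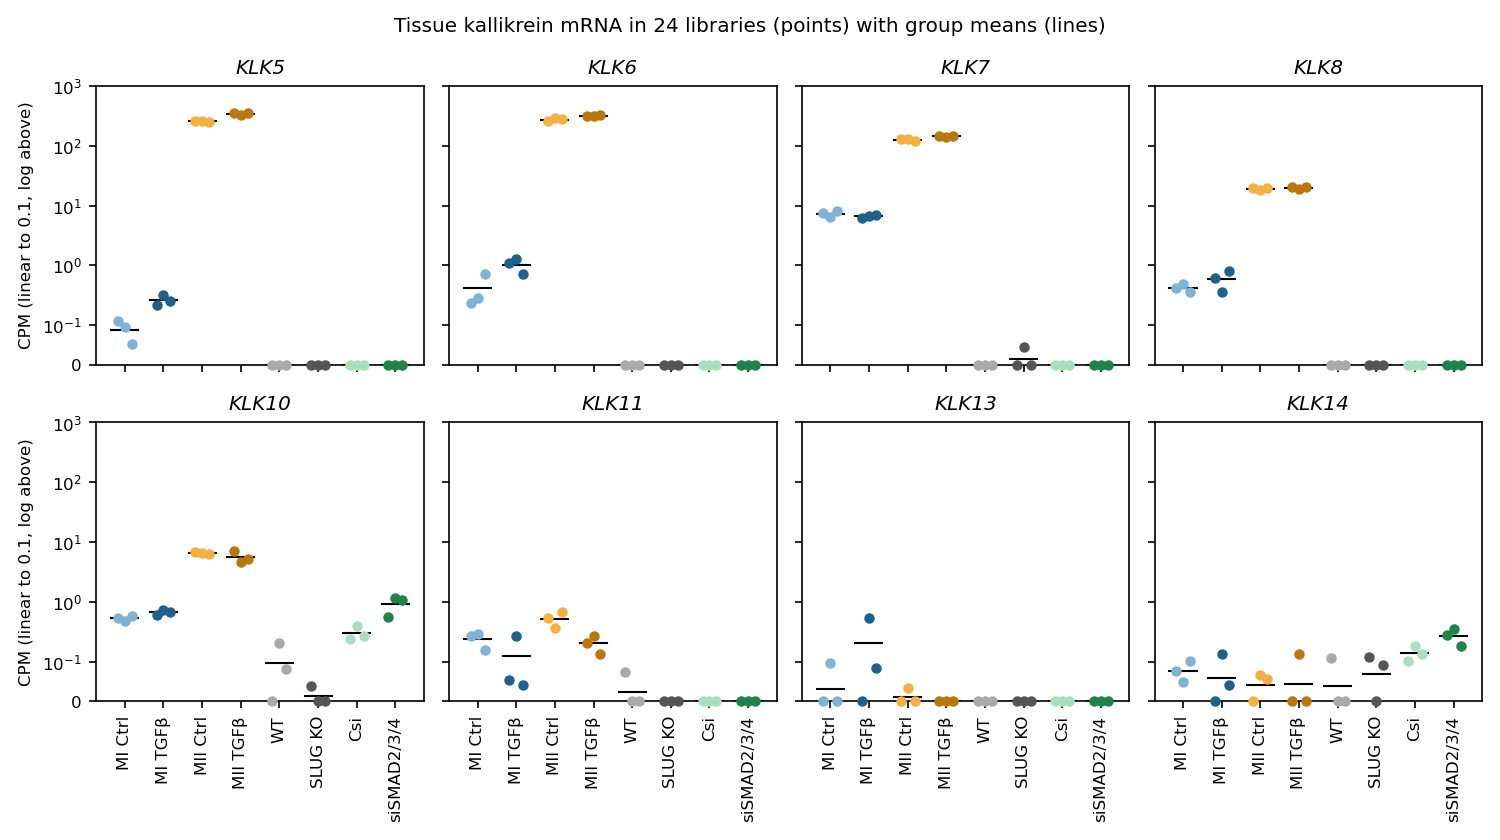
CPM of each of the 8 kallikreins (vertical axis, linear up to 0.1 and logarithmic above) in every library of the 8 groups (points) with the group mean (line). *KLK5*, *KLK6*, *KLK7*, *KLK8* and *KLK10* sit higher in all 6 MII libraries than in the other 18, while *KLK13* and *KLK14* stay under 1 CPM throughout. The members were chosen by such levels, and the share of all genes that separate in this way is not given.

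*KLK5*, a trypsin-like protease that can activate other kallikreins, had 3, 2 and 1 counts in the unstimulated MI libraries and 3986, 7816 and 4538 in the MII libraries. These correspond to 0.116, 0.0964 and 0.0520 CPM against 264, 262 and 252 CPM. From the summed counts of each group (6 against 16340), the level was 2850-fold higher in MII, with an exact 95% counting interval from 1309 to 7768, which covers counting error only. The fitted log2 fold-change of *KLK5*, 11.40, ranked 4 among all 17862 genes. It was not detected in any of the 12 MDA-MB-231 libraries, and against WT, with the count of 0 set to 3 counts over the group, the MII level was at least 6536-fold higher.

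*KLK6*, another trypsin-like member that is abundant in the central nervous system, behaved similarly in unstimulated spheres. It had 6, 6 and 14 counts in MI (0.232, 0.289 and 0.727 CPM) and 3851, 8662 and 4985 counts in MII (255, 290 and 277 CPM). The ratio of summed counts was 704 (interval 481 to 1079), and the fitted log2 fold-change of 9.43 ranked 14. MI Ctrl replicate 3 was the highest of the MI libraries, and without it the fitted value was 10.03. MDA-MB-231 cells had no *KLK6* count either, which puts MII at least 6999-fold above WT.

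*KLK7* encodes the chymotrypsin-like partner of KLK5 in skin. It was the only member above 1 CPM in every unstimulated MI library, at 7.49, 6.41 and 8.11 CPM, and reached 130.4, 127.7 and 120.6 CPM in MII. The ratio was accordingly smaller, 17.2 (interval 15.7 to 18.9), from 483 and 7956 summed counts. Among the 12 MDA-MB-231 libraries a single count was found, in 1 library labelled SLUG KO.

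*KLK8*, which encodes the trypsin-like protease neuropsin, was at 0.425, 0.482 and 0.364 CPM in MI and 19.3, 18.1 and 19.4 CPM in MII, a ratio of 44.2 (interval 30.4 to 66.8). *KLK10* was at 0.540, 0.482 and 0.572 CPM in MI and 6.89, 6.59 and 6.22 CPM in MII, a ratio of 12.4 (interval 8.74 to 18). No MI and MII libraries overlapped for either gene. *KLK11*, a trypsin-like member, was far lower, with 7, 6 and 3 counts in MI and 8, 11 and 12 in MII, and its ratio of 2.03 had an interval from 1.08 to 3.97. *KLK13* had 2 counts in the 3 MI libraries together and 1 in MII, and *KLK14*, whose product can activate the receptor PAR2, had 5 and 3. For both, a difference was not detectable at this depth.

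Because longer genes collect more fragments, members were compared with each other only per kb of unshared exon. In unstimulated MII-spheres the level of *KLK5* was 179 ± 4.32 CPM per kb and that of *KLK6* 174 ± 11.2 CPM per kb, and the libraries of the pair overlapped. Further along the chromosome *KLK7* was at 51.6 ± 2.06, *KLK8* at 17.0 ± 0.664, *KLK10* at 1.85 ± 0.0936 and *KLK11* at 0.168 ± 0.0480 CPM per kb. The measurable levels in MII thus followed the gene order from *KLK5* to *KLK11*, with no overlap between libraries from *KLK6* onward. Among 19942 protein-coding genes, *KLK6* held rank 130 by mean CPM per kb in unstimulated MII-spheres, *KLK7* rank 575, *KLK8* rank 2155 and *KLK10* rank 9244. In unstimulated MI-spheres the order differed, with *KLK7* at 3.00 ± 0.351 CPM per kb above *KLK8* at 0.379 ± 0.0528 and *KLK6* at 0.265 ± 0.173, and *KLK5* was at 0.0607 ± 0.0226 CPM per kb. The MI libraries of *KLK8* (0.325 to 0.431) and *KLK6* (0.147 to 0.463) overlapped, from 28 and 26 summed counts, so the order of these 2 genes was not resolved.

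**Figure D2:**
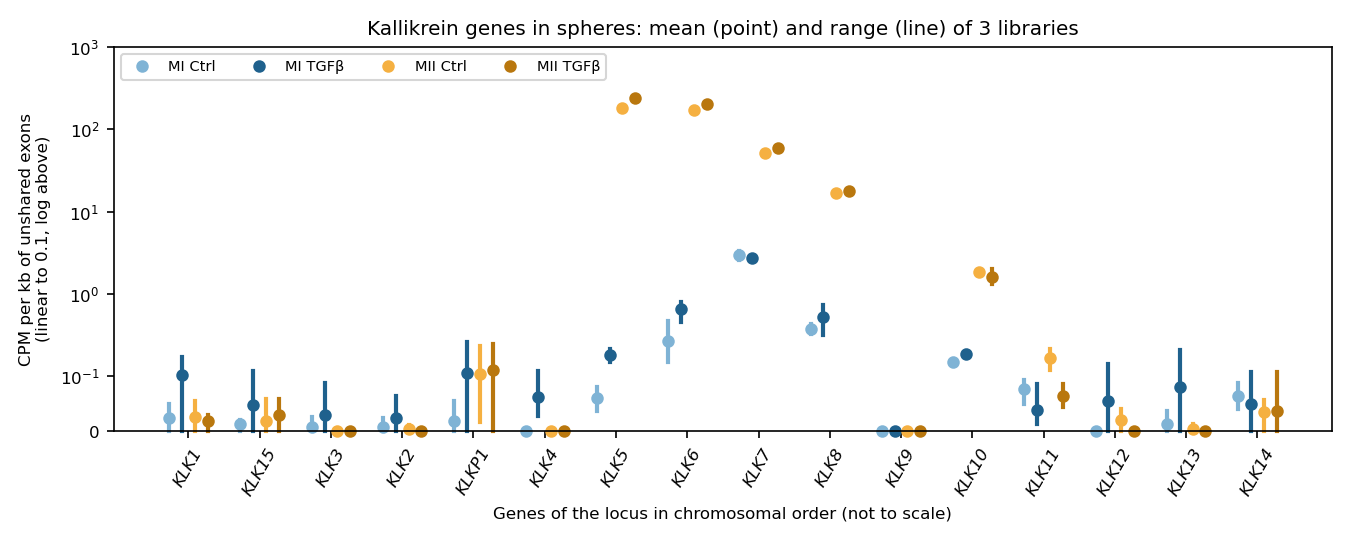
Mean (point) and range over 3 libraries (line) of CPM per kb of unshared exon for 16 genes of the kallikrein locus in chromosomal order (horizontal axis, not to scale), in unstimulated and TGFβ-stimulated MI- and MII-spheres. In unstimulated MII-spheres the mean steps down from 179 CPM per kb for *KLK5* to 1.85 for *KLK10*, while the genes to the left of *KLK5* stay near 0.

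Outside the members the locus held few counts. Of the 8 other genes listed there (*KLK1*, *KLK2*, *KLK3*, *KLK4*, *KLK9*, *KLK12*, *KLK15* and the pseudogene *KLKP1*) none had enough counts to be tested in any comparison. Together they had 0 to 12 counts per library, apart from MI TGFβ replicate 2 with 54. *KLK9* had no count in any library, but 96.3% of its exon bases are shared with other genes, so its level cannot be read from these tables. Of 18 further genes between the members or within 100 kb of them, 3 were tested in any comparison. *CTU1*, a tRNA-modifying enzyme gene at chr19:51097606-51108409 beyond *KLK14*, differed little between MII Ctrl and MI Ctrl (log2 fold-change -0.14 ± 0.14 SE, adjusted p = 0.404, edgeR). The other 2 are lncRNAs on the plus strand that overlap exons of *KLK5* and *KLK6*. ENSG00000267879 (chr19:50968193-51012129) had 22, 45 and 21 counts in unstimulated MII and 0, 1 and 0 in unstimulated MI libraries, and after TGFβ it was called lower in MII-spheres (11, 7 and 7 counts, log2 fold-change -1.33 ± 0.37, edgeR adjusted p = 0.00166). ENSG00000269495 (chr19:50950185-50963649) had 8, 14 and 14 counts in unstimulated MII and none in unstimulated MI. ENSG00000267879 also spans *KLK7* and *KLK8*. Since strand was ignored, fragments of these lncRNAs and of unspliced or unannotated RNA of the kallikreins they span cannot be told apart.

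TGFβ moved the kallikreins of MII-spheres little beside the difference between the lines. Of 5 members tested, *KLK5*, *KLK6* and *KLK7* rose, while *KLK8* and *KLK10* did not pass the test. Over all 16396 genes tested in MII-spheres, 30.0% were called higher and 27.7% lower at an adjusted p under 0.05 (edgeR's quasi-likelihood test), so 3 of 5 called members stand against a high background. *KLK5* was at 264, 262 and 252 CPM without and 360, 328 and 351 CPM with TGFβ, and the groups did not overlap. Its log2 fold-change was 0.38 ± 0.037 (SE, 3 against 3 libraries, edgeR adjusted p = 1.10e-14), a 1.30-fold rise.

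*KLK6* rose from 255, 290 and 277 CPM to 310, 311 and 329 CPM in MII-spheres, a log2 fold-change of 0.17 ± 0.038 (edgeR adjusted p = 7.92e-05). *KLK7* rose from 130.4, 127.7 and 120.6 CPM to 145, 142 and 146 CPM, by 0.16 ± 0.042 (edgeR adjusted p = 9.83e-04). For both genes every stimulated library lay above every unstimulated one, which describes these values without the share of all genes that did so. Scaling to the library total in place of TMM shifted the median of all genes by -0.13 in MII- and by -0.14 in MI-spheres on the log2 scale, and lowered the share of called genes that were higher from 51.9% to 33.2% and from 51.1% to 34.2%. Under it, the calls of *KLK6* (0.041, edgeR adjusted p = 0.364) and *KLK7* (0.025, edgeR adjusted p = 0.623) were lost in MII-spheres and that of *KLK5* was kept (0.25). *KLK8* was at 19.3, 18.1 and 19.4 CPM without and 20.1, 19 and 20.7 CPM with TGFβ, with a 95% interval of its log2 fold-change from -0.13 to 0.22, and its sign turned under library totals (-0.088). *KLK10* was at 6.89, 6.59 and 6.22 CPM without and 7.10, 4.67 and 5.30 CPM with it, a log2 fold-change of -0.24 (interval -0.54 to 0.057, edgeR adjusted p = 0.163). It was called lower with library totals (-0.37, edgeR adjusted p = 0.0278) and without MII TGFβ replicate 1 (-0.42, edgeR adjusted p = 0.0300), with adjusted p from 0.0278 to 0.611 over 13 alternatives. *KLK11* had 8, 11 and 12 counts without and 3, 4 and 2 with TGFβ in MII-spheres, and the groups did not overlap in CPM. It was below the filter on low counts, and without the filter its log2 fold-change was -1.30 ± 0.67 (edgeR adjusted p = 0.163).

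In MI-spheres *KLK6* alone was called after TGFβ, where 28.7% of the 16863 genes tested were called higher and 27.4% lower. Its counts were 6, 6 and 14 without and 20, 28 and 17 with TGFβ, or 0.232, 0.289 and 0.727 CPM against 1.10, 1.26 and 0.724 CPM, so that the lowest stimulated library lay just under the highest unstimulated one. The log2 fold-change was 1.26 ± 0.44 (interval 0.35 to 2.17, edgeR adjusted p = 0.0184). *KLK6* passed the filter on low counts of this fit through the stimulated libraries alone, where it was higher. DESeq2 gave 1.28 with an adjusted p of 0.0932, and the call was lost in 4 of 6 fits with 1 library left out, namely without MI Ctrl replicate 1 (0.94) or 2 (1.09) and without MI TGFβ replicate 1 (1.22) or 2 (1.07). Over the 12 alternatives in which it was tested, the edgeR or DESeq2 adjusted p ran from 7.80e-04 to 0.122, and a filter of at least 10 counts in every library removed it. MI TGFβ replicate 2 stood apart, since 17904 protein-coding genes had at least 1 count there against 15053 to 16480 in the other 23 libraries. The part of this in the *KLK6* value was not tested beyond leaving the library out.

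The 3 stimulated MI libraries held *KLK5* at 0.220, 0.314 and 0.256 CPM, all above the unstimulated ones, but from 4, 7 and 6 counts against 3, 2 and 1, which was below the filter of that fit (without the filter 1.42 ± 0.93, edgeR adjusted p = 0.344). *KLK7* was at 7.49, 6.41 and 8.11 CPM without and 6.20, 6.77 and 6.98 CPM with TGFβ, with a log2 fold-change of -0.22 ± 0.13 (edgeR adjusted p = 0.156). It was called lower only with library totals (-0.36, edgeR adjusted p = 0.0242, the lowest of 13 alternatives, the highest being 0.489). *KLK8* (interval -0.52 to 1.30) and *KLK10* (-0.55 to 1.06) did not pass the test. *KLK13* had 0, 12 and 2 counts in stimulated MI libraries, and the 12 counts came from replicate 2, the library with the most detected genes.

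**Figure D3:**
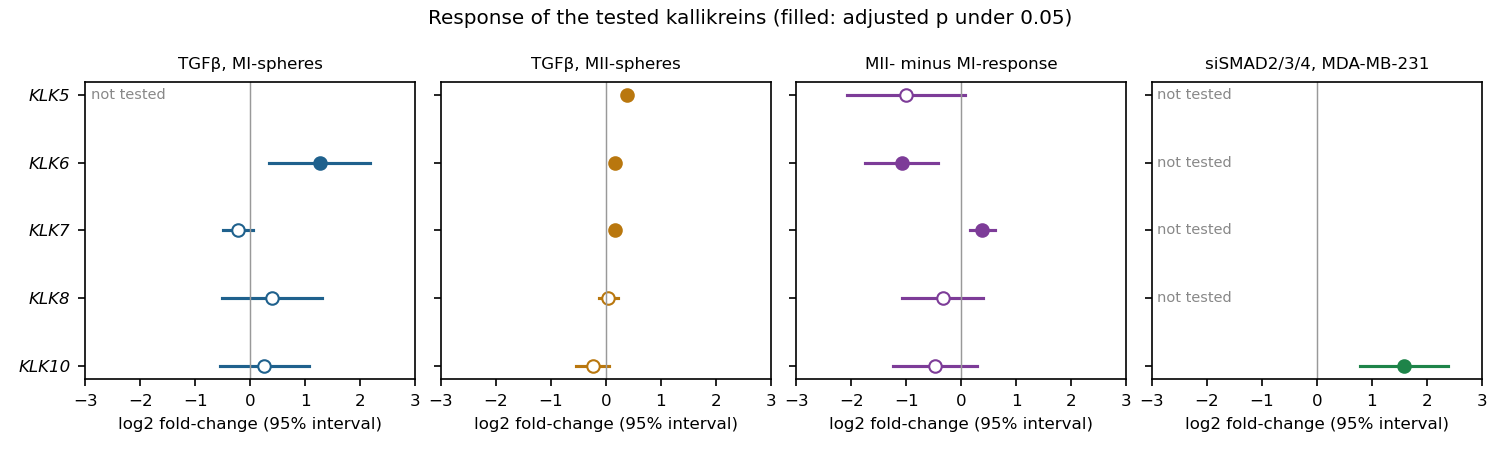
Log2 fold-change (horizontal axis) with its 95% interval for the 5 kallikreins tested in at least 1 of 4 comparisons, namely the TGFβ response of MI-spheres, that of MII-spheres, the difference between the 2 responses, and siSMAD2/3/4 against Csi. Filled points had an adjusted p under 0.05, as for *KLK5*, *KLK6* and *KLK7* in MII-spheres (0.38, 0.17 and 0.16) and *KLK10* after siSMAD2/3/4 (1.58).

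Whether the lines responded differently was tested as an interaction in 1 fit of the 12 sphere libraries, in which 12.7% of 18591 genes had a higher response in MII and 9.85% a lower one. The response of *KLK6* was smaller in MII than in MI by 1.08 on the log2 scale (-1.08 ± 0.33, edgeR adjusted p = 0.0123), from 0.17 and 1.26 in the separate fits. That of *KLK7* was larger in MII by 0.38 ± 0.11 (edgeR adjusted p = 0.00897), from 0.16 and -0.22. Both were called in most fits but not in all. *KLK6* lost its call in 3 of 12 fits with 1 library left out, those without MI Ctrl replicate 1 (-0.78) or 2 (-0.95) or MI TGFβ replicate 2 (-0.93). *KLK7* lost it without MI Ctrl replicate 1 (0.34) or 3 (0.28) or MI TGFβ replicate 1 (0.30). *KLK5* (-1.01, interval -2.08 to 0.064), *KLK8* (-0.34, interval -1.08 to 0.40) and *KLK10* (-0.48, interval -1.25 to 0.28) did not pass, and for *KLK5* the 6 unstimulated MI counts limit the estimate. The level difference between the lines stayed after stimulation, with ratios of summed counts of 1303 for *KLK5* (interval 814 to 2238), 312 for *KLK6* (245 to 405), 21.6 for *KLK7* (19.5 to 23.8), 33.6 for *KLK8* (24.3 to 47.8) and 8.47 for *KLK10* (6.11 to 12).

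In MDA-MB-231 cells the locus was nearly silent, and *KLK10* and *KLK14* were the members with counts in all 6 transfected libraries. *KLK10* had 7, 15 and 10 counts in Csi and 20, 39 and 35 in siSMAD2/3/4, or 0.235, 0.395 and 0.271 CPM against 0.553, 1.14 and 1.08 CPM, and the groups did not overlap. It rose by a log2 fold-change of 1.58 ± 0.40 (3.00-fold, interval of the log2 value 0.78 to 2.39, edgeR adjusted p = 0.00144), where 16.3% of the 17696 genes tested were called higher and 19.8% lower. A filter of at least 10 counts in every library removed *KLK10*, with its 7 counts in Csi replicate 1. The other 12 alternatives kept the call, with log2 fold-changes from 1.41 to 1.86. Their edgeR or DESeq2 adjusted p ran from 6.27e-04 to 0.0164. In the main fit *KLK10* passed the filter on low counts through siSMAD2/3/4 alone, the group where it was higher. The kept calls are thus a description and no added support. Per the column headers of the counts, siSMAD2/3/4 replicates 1 and 2 ran on another flow cell than the 4 other transfected libraries. The labels give the same batch for all 6, and the headers were used here. Within the shared flow cell, siSMAD2/3/4 replicate 3 was at 1.08 CPM against 0.235 to 0.395 CPM in Csi, and with flow cell as a term the log2 fold-change was 1.83 (edgeR adjusted p = 0.00721). The level after siSMAD2/3/4 was still 0.925 ± 0.323 CPM, below the 6.57 ± 0.333 CPM of unstimulated MII-spheres. *KLK14* had 3, 7 and 5 counts in Csi and 10, 12 and 6 in siSMAD2/3/4, too few to pass the filter, and 0.91 ± 0.68 without it (log2 fold-change, edgeR adjusted p = 0.479).

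No member passed the filter for SLUG KO against WT, where 1.34% of 17428 genes were called higher and 1.80% lower. *KLK10* had 0, 5 and 2 counts in WT and 1, 0 and 0 in libraries labelled SLUG KO, and *KLK14* had 3, 0 and 0 against 3, 0 and 2. *KLK11* had 2 counts in WT replicate 1 and *KLK7* 1 count in SLUG KO replicate 2. *KLK5*, *KLK6*, *KLK8* and *KLK13* were at 0 in all 6 of these libraries. A group sum of 0 allows up to 0.0397 CPM in WT and 0.0434 CPM in SLUG KO, taking 3 counts over the group, and differences below that were not detectable.

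Ordered by group mean, *KLK5* and *KLK6* ran from MII TGFβ over MII Ctrl, MI TGFβ and MI Ctrl to the 4 MDA-MB-231 groups at 0, and neighbouring groups overlapped only between MI TGFβ and MI Ctrl for *KLK6* and among the groups at 0. *KLK7* had the same top pair but MI Ctrl above MI TGFβ, which overlapped. For *KLK8* the 2 MII groups overlapped, as did the 2 MI groups. *KLK10* had MII Ctrl first, overlapping MII TGFβ, then siSMAD2/3/4, which overlapped MI TGFβ, then MI Ctrl, Csi, WT and SLUG KO, where only the last pair overlapped. *KLK11* was highest in MII Ctrl (0.368 to 0.667 CPM) with no overlap to the next group. Neighbouring groups overlapped throughout for *KLK13*, and for *KLK14* except siSMAD2/3/4 and Csi. The transfected libraries come from another batch, so their place in these orders cannot be told apart from it.

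Over the 8 group means, the log2 levels of *KLK5*, *KLK6*, *KLK8* and *KLK10* rose and fell together, with Pearson's r from 0.964 to 0.999 for each pair. *KLK7* was somewhat less like them (0.918 to 0.954). These values rest on 8 points in which both MII groups stand high, and are descriptions. Among 12867 genes with a mean of at least 1 CPM, the protein-coding genes whose pattern was most like that of *KLK5* were *SLC5A1*, *CDH19* and *NPY5R* (r of 0.9995, 0.9995 and 0.9992). For *KLK6* they were *DTX1*, *GUCY1A1* and *CLDN10* (0.9998, 0.9988 and 0.9981), for *KLK7* *ARHGEF38*, *AZGP1* and *CP* (0.9984, 0.9982 and 0.9978), for *KLK8* *DTX1*, *GUCY1A1* and *PLCB1* (0.9990, 0.9989 and 0.9988), and for *KLK10* *RABGAP1*, *PTGES2* and *GPRIN3* (0.9928, 0.9896 and 0.9882). *CDH19*, a cadherin gene, was at 0.0642 ± 0.111 CPM in MI Ctrl and 274 ± 9.95 CPM in MII Ctrl, close to *KLK5* at 0.0880 ± 0.0327 and 259 ± 6.27 CPM. *GUCY1A1*, which encodes a subunit of soluble guanylate cyclase, was at 0.627 ± 0.267 and 235 ± 7.25 CPM, beside 0.416 ± 0.271 and 274 ± 17.6 CPM for *KLK6*. For *KLK11*, *KLK13* and *KLK14* the counts were too sparse for such a likeness to be read.

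Genes that act around kallikreins were taken from 3 lists, inhibitors (11 genes), surface proteases with their Kunitz-type inhibitors (7) and substrates and receptors (11). Of the inhibitors, 8 were tested between the unstimulated lines, and 4 were called higher and 1 lower in MII, where 31.8% and 32.6% of all genes were called. Their median log2 fold-change was 0.64, against 0.017 over all genes. The list was chosen with earlier results of these data known, and *SPINK6*, *SERPINA5* and *SERPINA3* passed the filter on low counts through MII alone. The counts of called inhibitors and the median are therefore descriptions. The gene called lower was *A2ML1* (-0.56 ± 0.045), and *SERPINB6* was not called (0.046 ± 0.044). *SPINK6*, an inhibitor of epidermal kallikreins, had no count in any MI library and 10, 23 and 14 in unstimulated MII, at least 16.4-fold higher with the MI count set to 3 over the group. *SERPINA5*, the protein C inhibitor, had 4, 0 and 0 counts in MI and 341, 646 and 345 in MII, a ratio of 349 (interval 136 to 1281). *SERPINA3*, antichymotrypsin, was 30.8-fold higher (interval 19.1 to 53.4), and *SPINK5* had a log2 fold-change of 1.24 ± 0.16. As a description of a list chosen in this way, the inhibitors included genes that were high in the same spheres as *KLK5* and *KLK6*.

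After TGFβ, 4 of 5 tested inhibitors were called higher and 1 lower in MI-spheres (28.7% and 27.4% of all genes), and 6 of 7 higher and 0 lower in MII-spheres (30.0% and 27.7%). *SPINK5*, whose product inhibits KLK5 and KLK7, was at 2.90, 2.79 and 2.44 CPM in MI Ctrl and 17.7, 16.8 and 23.2 CPM in MI TGFβ, a log2 fold-change of 2.74 ± 0.14 (edgeR adjusted p = 7.31e-14). In MII-spheres it rose from 6.76, 7.13 and 5.17 to 14.3, 13.7 and 13.6 CPM, by 1.08 ± 0.12 (edgeR adjusted p = 4.71e-12), and the response was smaller in MII by the interaction (-1.65 ± 0.19, edgeR adjusted p = 1.23e-09). *SERPINA5* rose by 3.49 ± 0.69 in MI- and 1.15 ± 0.07 in MII-spheres, with an interaction of -2.31 ± 0.60 (edgeR adjusted p = 0.00262). The MI value rests on 4, 0 and 0 counts without and 12, 14 and 24 with TGFβ, which limits both estimates. Over 12 alternatives it ran from 3.00 to 6.99. The interaction ran from -5.71 to -1.84 over 17, and neither call was lost. *SERPINF2*, antiplasmin, rose by 0.74 ± 0.16 and 0.85 ± 0.18. *SERPINB6*, an intracellular serpin, rose by 0.52 ± 0.051 in MI- and 0.24 ± 0.046 in MII-spheres, and the interaction passed (-0.27 ± 0.069, edgeR adjusted p = 0.00270). *SERPINA3* was tested in MII-spheres and rose by 0.72 ± 0.12. *A2ML1*, a broad protease inhibitor of the epidermis, fell by 0.43 in MI- (-0.43 ± 0.056) and rose by 0.28 ± 0.05 in MII-spheres, and the difference passed the interaction test (0.72 ± 0.076, edgeR adjusted p = 5.25e-11).

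**Figure D4:**
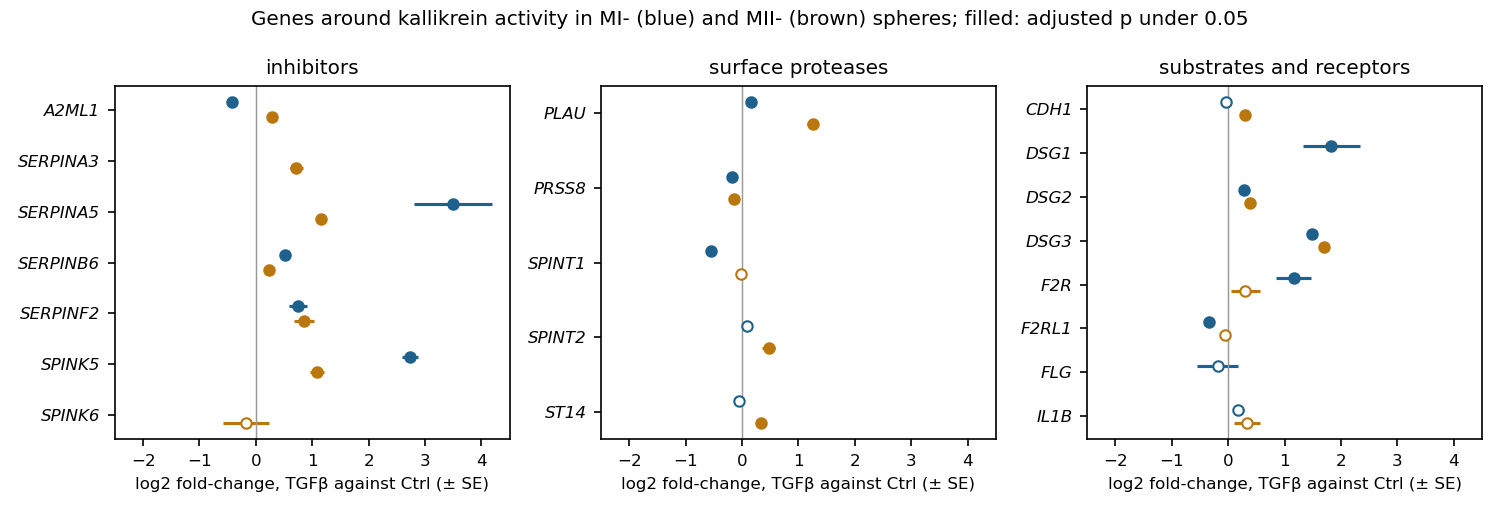
Log2 fold-change of TGFβ against Ctrl (horizontal axis, ± SE) for the tested genes of the 3 lists in MI- (blue) and MII-spheres (brown), with filled points for an adjusted p under 0.05. *SPINK5* (2.74 and 1.08) and *DSG3* (1.49 and 1.69) rose in both lines, while *A2ML1* lies on opposite sides of 0.

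Of the substrates and receptors, 4 of 8 tested were called higher and 1 lower in MI-spheres (28.7% and 27.4% of all genes), and 3 of 6 higher and 0 lower in MII-spheres (30.0% and 27.7%). *DSG1*, a desmosomal cadherin cleaved in the skin, had 6, 2 and 6 counts in MI Ctrl and 10, 14 and 29 in MI TGFβ, a log2 fold-change of 1.83 ± 0.50 (edgeR adjusted p = 0.00365). *DSG3*, another desmosomal cadherin, rose from 157 to 162 CPM up to 439 to 512 CPM in MI- (1.49 ± 0.053) and from 57.4 to 59.8 CPM up to 183 to 199 CPM in MII-spheres (1.69 ± 0.045). *F2R*, the thrombin receptor PAR1, rose in MI-spheres by 1.16 ± 0.31 (edgeR adjusted p = 0.00290). *DSG2*, which encodes desmoglein 2, rose by 0.28 ± 0.053 in MI- and 0.38 ± 0.036 in MII-spheres, and its interaction was not called (0.11 ± 0.064). *CDH1*, which encodes E-cadherin, rose in MII-spheres by 0.30 ± 0.034 and was not called in MI-spheres (-0.033 ± 0.048). *F2RL1*, which encodes PAR2, a receptor that trypsin-like kallikreins can cleave, was called lower in MI-spheres (-0.34 ± 0.074, edgeR adjusted p = 4.19e-04). In the unstimulated lines 3 of 7 were called higher and 4 lower in MII (31.8% and 32.6% of all genes), with *IL1B* (-2.18 ± 0.15), *FLG* (-1.65 ± 0.44), *DSG3* (-1.44 ± 0.043) and *F2R* (1.01 ± 0.30) furthest from 0. Between the responses, 3 of 7 tested substrates and receptors had a higher response in MII and 0 a lower one (12.7% and 9.85% of all genes). These were *CDH1* (0.35 ± 0.06), *F2RL1* (0.30 ± 0.098), which lost its call in 9 of 18 alternatives, and *DSG3* (0.21 ± 0.069), which lost it in 12 of 18.

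Of the surface proteases and their inhibitors, 5 were tested in each line. Between the unstimulated lines 2 were called higher in MII and 2 lower (31.8% and 32.6% of all genes). *PLAU*, urokinase, was lower in unstimulated MII- than MI-spheres (-3.61 ± 0.064, 8.48 CPM in the lowest MII library and 124 CPM in the lowest MI library) and rose after TGFβ in MII-spheres (1.25 ± 0.10). *PRSS8*, which encodes prostasin, and *SPINT2* were higher in MII by 0.45 ± 0.055 and 0.41 ± 0.066, and *SPINT1* was lower (-0.25 ± 0.035). *PLAU* thus differed between the lines in the direction opposite to the kallikreins. After TGFβ, 1 of the 5 was called higher and 2 lower in MI-spheres (28.7% and 27.4% of all genes), with *SPINT1* at -0.55 ± 0.05, *PRSS8* at -0.17 ± 0.071 and *PLAU* at 0.16 ± 0.051. In MII-spheres 3 were called higher and 1 lower (30.0% and 27.7%), namely *PLAU*, *SPINT2* (0.47 ± 0.11), *ST14*, which encodes matriptase (0.34 ± 0.036), and *PRSS8* (-0.15 ± 0.055). *PRSS8* lost its call in 6 of 13 alternatives in each line, *SPINT2* in 3, and *PLAU* in MI-spheres in 2, one of them library totals. The interaction was higher in MII for 3 of 6 tested (12.7% of all genes), *PLAU* (1.09 ± 0.11), *SPINT1* (0.55 ± 0.062) and *ST14* (0.41 ± 0.062).

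In MDA-MB-231 cells, siSMAD2/3/4 against Csi called 1 inhibitor of 6 tested higher, *SERPINF2* (0.60 ± 0.22), whose call was lost in 5 of 13 alternatives. Of 7 substrates and receptors, 3 were lower, *F2RL1* (-0.36 ± 0.042), *F2R* (-0.34 ± 0.047) and *CDH1* (-0.30 ± 0.08). Of 5 surface proteases 1 was higher and 2 lower, with *SPINT1* at 0.30 ± 0.083 and *PRSS3* at -0.58 ± 0.14, where 16.3% of all genes were called higher and 19.8% lower. With flow cell as a term the calls of *SPINT1* and *CDH1* were lost. In libraries labelled SLUG KO, *ST14* (2.79 ± 0.37, edgeR adjusted p = 0.0117) and *PLAU* (1.32 ± 0.17, edgeR adjusted p = 0.00982) were higher than in WT and *F2RL1* was lower (-1.31 ± 0.26, edgeR adjusted p = 0.0478), against 1.34% and 1.80% of all genes. *ST14* stayed between 2.58 and 3.33, *PLAU* between 1.27 and 1.41 and *F2RL1* between -1.53 and -1.11 over 12 alternatives, but each call was lost without any 1 of the 3 SLUG KO libraries, those of *PLAU* and *F2RL1* also without WT replicate 1 and that of *F2RL1* without WT replicate 3. After siSMAD2/3/4 *PLAU* fell by 0.91 on the log2 scale (-0.91 ± 0.041, edgeR adjusted p = 8.50e-21), while *KLK10* rose.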

How the data were processed

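Fragments of ribosomal RNA-depleted libraries from 24 samples were counted by the authors and deposited as raw counts, 1 table per library of 60708 genes. Reads were trimmed with Trimmomatic and aligned to GRCh38 with STAR. Per the file headers, featureCounts 2.0.0 counted pairs with both ends mapped and a mapping quality of at least 30 over exons of GENCODE 38, ignoring strand and leaving out fragments that overlap several genes. The counts are not normalized, and GENCODE 44 gave symbols for 99.6% of the genes. The series lists 40 samples, of which the ATAC-seq samples were not analysed here.

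Analyses used R 4.3.3, edgeR 4.0.16, DESeq2 1.42.0, pandas 2.3.3 and scipy 1.17.1. Every comparison had a fit of its own, over the whole table (filterByExpr, TMM, quasi-likelihood test, Benjamini-Hochberg adjustment, adjusted p under 0.05), and the interaction on the 12 sphere libraries. Comparisons that use the same control libraries are not independent. Levels are CPM after TMM scaling of all 24 libraries in 1 step. Ratios of summed counts have exact 95% intervals. Where groups are said not to overlap, this describes the gene named, and the share of all genes without overlap is not given. The fits were tested on simulated data. Same-numbered libraries were not paired (correlations of their deviations from -0.123 to 0.032). The limit of a group at 0 was set at 3 counts over its 3 libraries, and its value in CPM depends on their total counts (14124688 to 38406952 per library).

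The members and the lists were chosen with earlier results of these data known. Named are all members, in each list up to 4 called genes with the largest absolute log2 fold-change, the 3 protein-coding genes most like each member, and called neighbours within 100 kb. *A2ML1* and *SERPINB6* are also given between the unstimulated lines. Likeness was Pearson's r of log2(CPM + 1). No protein sequences were used here. Alternatives were DESeq2, its size factors in edgeR, library totals, no filter, at least 10 counts in every library, a replicate block, flow cell as a term, a joint fit of all sphere libraries and leaving out each library.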

Additional observations from a re-analysis of the deposited data

Results flagged for a closer look

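Of 5 kallikreins tested, 2 responded to TGFβ differently between the lines by the interaction term of 1 edgeR fit over the 12 sphere libraries. In that fit 12.7% of 18591 genes had a higher response in MII and 9.85% a lower one. For *KLK6* the response in MII- minus that in MI-spheres was -1.08 ± 0.33 on the log2 scale (adjusted p = 0.0123), from counts of 6, 6 and 14 without and 20, 28 and 17 with TGFβ in MI-spheres. For *KLK7* it was 0.38 ± 0.11 (adjusted p = 0.00897). Their directions held in all 17 and 18 alternatives, and their calls in 14 and 15 of these, while requiring 10 counts in every library removed *KLK6* from the test. Single values within groups of 3 libraries were not tested for their distance from the others.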

How the results depend on the processing

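The levels of *KLK5* and *KLK6* rest on few counts in MI-spheres, which limits every ratio to MI, and 3 libraries per group limit the rest. In MI-spheres 1 member was called higher after TGFβ, against 0 with DESeq2 and 0 with at least 10 counts in every library, which removes *KLK6*, and 2 when all 12 sphere libraries were fitted together (*KLK5* joined). *KLK5* was below the filter of the MI fit and entered the joint fit through its MII counts. Its call in the joint fit is thus no added support for a response in MI-spheres. Leaving out 1 library gave 0 to 1. With library totals 1 member was called lower there, and in MII-spheres 1 higher in place of 3 and 1 lower in place of 0, which leaving out 1 library moved between 0 and 1. *KLK8* turned to -0.088 (adjusted p = 0.381) in MII-spheres with library totals. Requiring 10 counts in every library left 2 members above a log2 fold-change of 1 between the unstimulated lines in place of 5, as fewer members were tested, and leaving out 1 library gave 5 to 6. For the interaction the members called lower went from 1 to 0 with 10 counts in every library, and those called in either direction to between 0 and 1 with 1 library left out. Same-numbered libraries share only a number. The replicate block left 1 member called higher in MI- and 3 in MII-spheres, 1 called in each direction for the interaction and 1 for siSMAD2/3/4, and lowered the genes called for SLUG KO from 548 to 239. That count was 1204 with DESeq2, 240 with 10 counts in every library, and 123 to 5621 with 1 library left out, the highest without WT replicate 2. The cause of these changes was not tested where not given. The rise of *KLK5* in MII-spheres held under all 13 alternatives. The call of *KLK10* after siSMAD2/3/4 held under 12, while requiring 10 counts in every library removed it from the test.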
